A study of Caenorhabditis elegans with 11 samples.

Results

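Day 8 Caenorhabditis elegans hermaphrodites that had lived with males were compared between worms given RNAi against utx-1 (2 arrays) and worms given no RNAi (3 arrays). The 5 arrays were chosen from the 11 in the series by their titles, not by any measured value. All 22548 probe sets that are not array controls were compared, as the mean with utx-1 RNAi minus the mean without RNAi. All worms in both groups were glp-1(e2141), labelled sterile; the allele is temperature-sensitive. Embryos had been grown at 15°C and synchronised by bleaching. For both groups, 250 L1 hermaphrodites shared a 10 cm plate of NGM agar with 250 wild-type males (L4 to young adult) at the restrictive 25°C for 8 days, on the bacterial strain OP50 per the series text. Males were taken off before RNA was made from 200 whole hermaphrodites. A further 3 arrays of utx-1 RNAi and 3 of no RNAi came from the same genotype and age kept without males, at 500 hermaphrodites per plate. They serve here for the test of whether the effect of RNAi differed between the settings.

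The labels limit what the contrast isolates. They name no empty-vector RNAi control and do not say how the RNAi was given. Knockdown of utx-1 and the RNAi treatment itself therefore cannot be told apart. The series text counts 3 independent experiments per condition, with too little RNA for 1 sample of utx-1 RNAi with males. The labels say nothing more about what separates replicates, so p-values measure the spread between these samples, which may be partly technical. The labelled sterility does not match the germ line RNA of both utx-1 RNAi arrays with males, as shown next. Their utx-1 signal was low as labelled, but whether the labelled genotype and sterility hold for these 2 arrays was not tested. The differences below are between arrays as labelled, and an effect of utx-1 RNAi means no more than that difference.

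UTX-1 is a histone demethylase that removes methyl groups from lysine 27 of histone H3, a mark laid down by the PRC2 complex and tied to gene repression. GLP-1, a Notch receptor, holds the stem cells of the germ line in division. When it fails early in larval life, the few germ cells leave mitosis and the adult lacks a germ line. A normal adult hermaphrodite germ line holds mitotic stem cells, meiotic cells and oocytes. Oocytes stockpile maternal mRNAs for eggshell, RNA-binding and cell cycle proteins, and they take up yolk made in the intestine. C. elegans males that live with hermaphrodites shorten the hermaphrodites' life, and utx-1 has been studied as a regulator of lifespan.

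With males, RNA of the germ line stood far higher in utx-1 RNAi worms than in worms without RNAi. Genes for the eggshell, the oocyte surface, maternal RNA-binding proteins, meiosis and cell division rose together. The 20 largest rises were of 18-fold to 101-fold, none of them in the list of meiotic chromosome genes, which rose less. Genes first transcribed in the embryo, sperm genes and yolk protein genes did not share the rise as groups. As the arrays were deposited, 5.23% of all genes fell. So did a minority of muscle (9 of 31), neuron (4 of 24), collagen (13 of 145), UDP-glucuronosyltransferase (12 of 64) and pals genes (7 of 23). These counts were 15, 12, 49, 18 and 14 with arrays centred on their median and 13, 8, 25, 17 and 10 with quantile normalisation, and 1, 0, 0, 4 and 1 without replicate 1 of utx-1 RNAi. Over all probe sets, 1144 fell as deposited, 3190 with arrays centred on their median and 1966 with quantile normalisation. In worms kept without males, 37 probe sets (0.164%) differed under the same RNAi, utx-1 among them. No member of these germ line lists was called there. Since 0.169% of all genes were called without males, lists of this size would be expected to hold few or none.

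The values are log2 RMA expression as the authors deposited it, from the Affymetrix C. elegans array, and a difference of 1 on this scale is a factor of 2. Array medians lay between 3.77 and 3.97 over all 11 arrays. The 2 utx-1 RNAi arrays with males correlated at 0.995 with each other across probe sets, and at 0.961 to 0.983 with the other 9 arrays. Those 9 correlated at 0.986 to 0.997 among themselves. Probe sets are not independent, so these correlations describe the arrays only.

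utx-1 itself was read by 2 probe sets. The brighter probe set was at 9.06 and 8.40 in utx-1 RNAi worms, against 12.57, 13.07 and 13.09 in worms without RNAi. The dimmer was at 5.0 and 4.87 with utx-1 RNAi, against 7.03, 7.13 and 7.10 without. On both probe sets each RNAi array lay below every array without RNAi, as the labels say. The log2 difference was -4.18 ± 0.40 on the brighter (SE; limma, adjusted p = 1.58e-05), which leaves 5.51% of the signal. It was -2.15 ± 0.10 on the dimmer (limma, adjusted p = 8.47e-08). Without males the brighter probe set had fallen further, by 6.55 on the log2 scale, and the effects differed by 2.37 (limma interaction, adjusted p = 0.0179). On the dimmer probe set the 2 effects differed by 0.32 with an adjusted p of 0.226 (limma). jmjd-3.1, another demethylase gene for the same histone mark, was at 4.04 and 3.98 with utx-1 RNAi, against 3.91, 3.92 and 3.92 without, and did not pass the test (limma, adjusted p = 0.676).

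Of the 22548 probe sets, 3165 changed at a Benjamini-Hochberg adjusted p under 0.05 (14%): 2021 were higher with utx-1 RNAi (8.96%) and 1144 lower (5.07%). The balance was one-sided in size. Above a log2 difference of 1, 639 probe sets were higher (2.83%) and 66 lower (0.293%), and above 3, 92 were higher and 1 lower. The lone large fall was utx-1. With each of 17118 genes read from its brightest probe set, 1608 genes rose (9.39%) and 896 fell (5.23%), around a median over all genes of -0.06 (quartiles -0.19 and 0.08). Leaving out replicate 1 of utx-1 RNAi left 1333 higher and 143 lower probe sets. That fit has 1 array of utx-1 RNAi with males, which is assumed to vary like the other groups, so a call can lapse while its difference stays. Leaving out replicate 1 without RNAi left 712 lower. Another scaling, centring each array on muscle and neuron genes, adds 0.5 to every log2 difference. It equalises the joint median level of those 2 lists across arrays by construction, which leaves median differences of 0.10 for muscle and 0.27 for neuron genes. Any fall smaller than 0.5 turns under it, so it is no check of the direction of these lists.

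**Figure D1:**
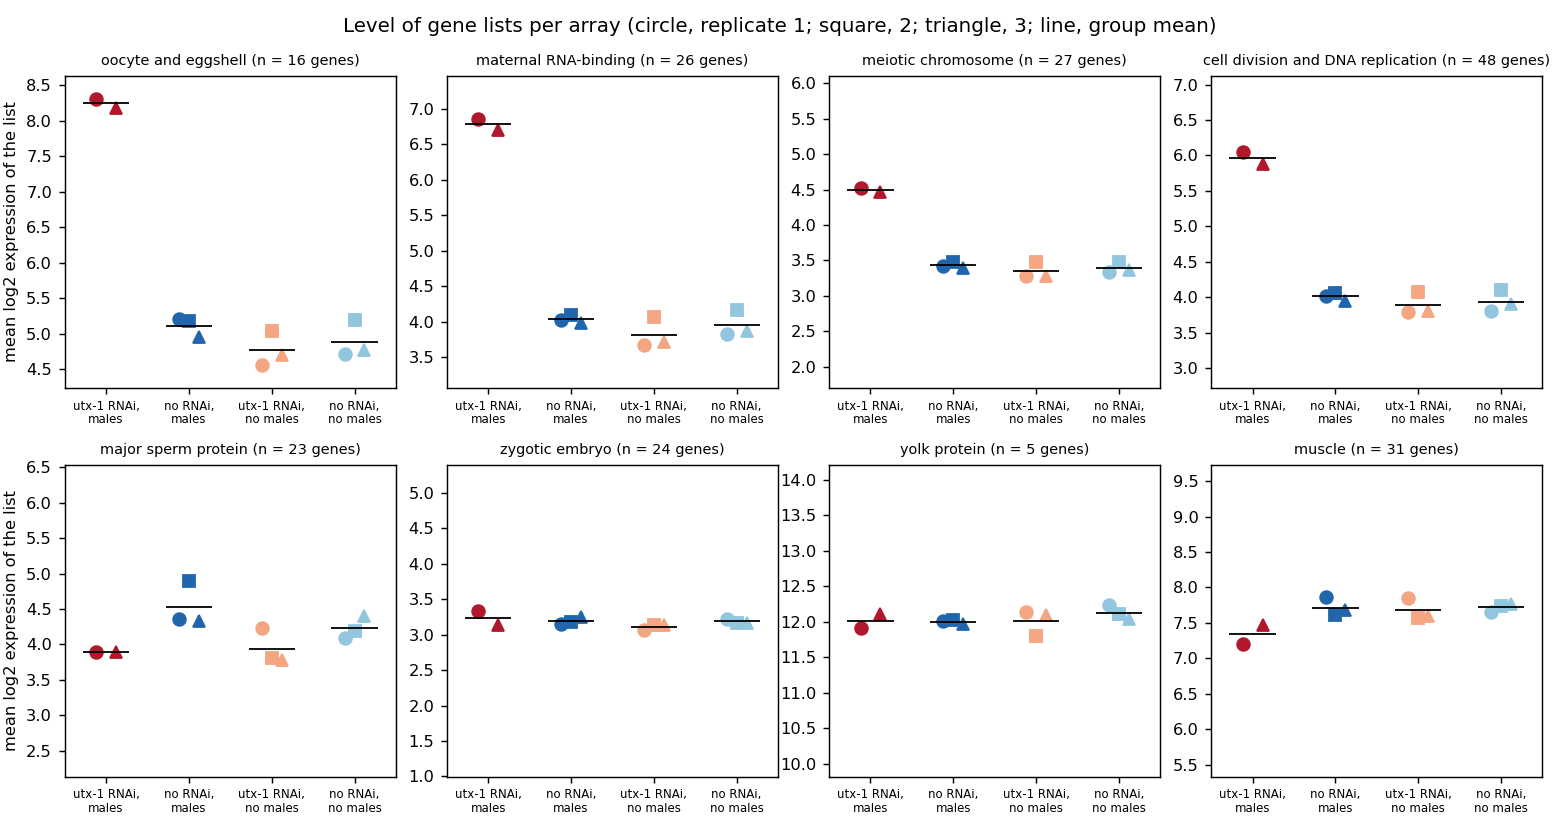
Mean log2 expression of 8 gene lists on each of the 11 arrays, grouped from left to right as utx-1 RNAi with males, no RNAi with males, utx-1 RNAi without males and no RNAi without males; the line is the group mean and each panel has its own vertical range. The 2 arrays of utx-1 RNAi with males stand above all others for the oocyte, maternal, meiotic and cell division lists, near the others for embryo and yolk genes, and, as deposited, low in muscle at 7.20 and 7.47, a difference that centring arrays on muscle and neuron genes removes by construction.

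Genes of the oocyte surface and eggshell rose the most. Of 16 measured, 14 were higher and none lower, against 9.39% higher among all genes, and the list's median log2 difference was 3.5 beside -0.06 for all genes. Averaged over the list, the level was 8.31 and 8.19 with utx-1 RNAi, against 5.20, 5.18 and 4.96 without. cpg-2, a chondroitin proteoglycan of the eggshell, led all genes: it was at 9.81 and 9.87 with utx-1 RNAi, against 3.70, 3.3 and 2.57 without. That is a log2 difference of 6.65 ± 0.42, or 101-fold (SE; limma, adjusted p = 4.51e-07). The groups were separated by more than the whole range of the arrays without RNAi.

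cbd-1, which encodes a chitin-binding eggshell protein, was at 8.45 and 8.42 with utx-1 RNAi, against 2.87, 3.45 and 2.99 without (difference 5.34 ± 0.20; limma, adjusted p = 7.95e-08). rme-2, the yolk receptor of the oocyte surface, was at 8.17 and 7.82 with utx-1 RNAi, against 3.1, 3.58 and 3.05 without (difference 4.75 ± 0.22; limma, adjusted p = 8.36e-08). Both genes were below the array median in every sample without RNAi. egg-1, an oocyte membrane protein needed for sperm entry, was at 7.23 and 7.14 with utx-1 RNAi, against 2.69, 2.79 and 2.51 without (difference 4.52). egg-6 was at 6.31 and 6.62 with utx-1 RNAi, against 2.61, 3.02 and 2.63 without (difference 3.71).

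The eggshell proteoglycan genes cpg-1 and cpg-3 rose by 4.30 and 4.21. cpg-3 was at 9.0 and 8.69 with utx-1 RNAi, against 5.71, 4.30 and 3.90 without. Replicate 1 without RNAi stood above its group for this gene, and still well below both RNAi arrays. trcs-1, a gene of the same list, rose by 4.31. The 2 members that did not pass, perm-2 and perm-4, encode eggshell barrier proteins and are named after their values were seen. perm-2 was at 13.40 and 13.39 with utx-1 RNAi, against 13.45, 13.39 and 13.49 without. perm-4 was at 13.59 and 13.63 with utx-1 RNAi, against 13.67, 13.61 and 13.66 without. Both lay near the top of the array's range in each group, with overlapping arrays.

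Maternal RNA-binding proteins control the translation of stored mRNAs in oocytes and early embryos. Of 26 genes, 25 were higher and none lower, against 9.39% higher among all genes, with a median log2 difference of 3.08. The list averaged 6.86 and 6.70 with utx-1 RNAi, against 4.02, 4.10 and 3.98 without. cey-2, a Y-box protein of the germ line, was at 8.98 and 8.69 with utx-1 RNAi, against 4.75, 4.03 and 3.88 without (difference 4.62 ± 0.30; limma, adjusted p = 6.37e-07). spn-4, which acts in embryonic axis formation, was at 7.56 and 7.45 with utx-1 RNAi, against 3.07, 3.12 and 2.98 without (difference 4.45 ± 0.19; limma, adjusted p = 7.95e-08). Within each group the arrays for spn-4 lay within a narrow band, and the bands were far apart.

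mex-5, a zinc finger protein that sets the anterior of the embryo, was at 7.74 and 7.82 with utx-1 RNAi, against 2.91, 3.31 and 2.85 without (difference 4.76). The Pumilio family genes puf-7, puf-11 and puf-3 rose by 4.57, 4.37 and 3.55. daz-1, which is needed for oogenesis, rose by 3.28 and mex-1 by 3.27. The probe sets for mex-5 and puf-7 are of a type that can bind related transcripts, so their values may include a paralog. gld-2, a cytoplasmic poly(A) polymerase, was the member that did not pass, named after its values were seen. It was at 7.39 and 7.19 with utx-1 RNAi, against 7.24, 7.41 and 7.82 without, so its groups overlapped.

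**Figure D2:**
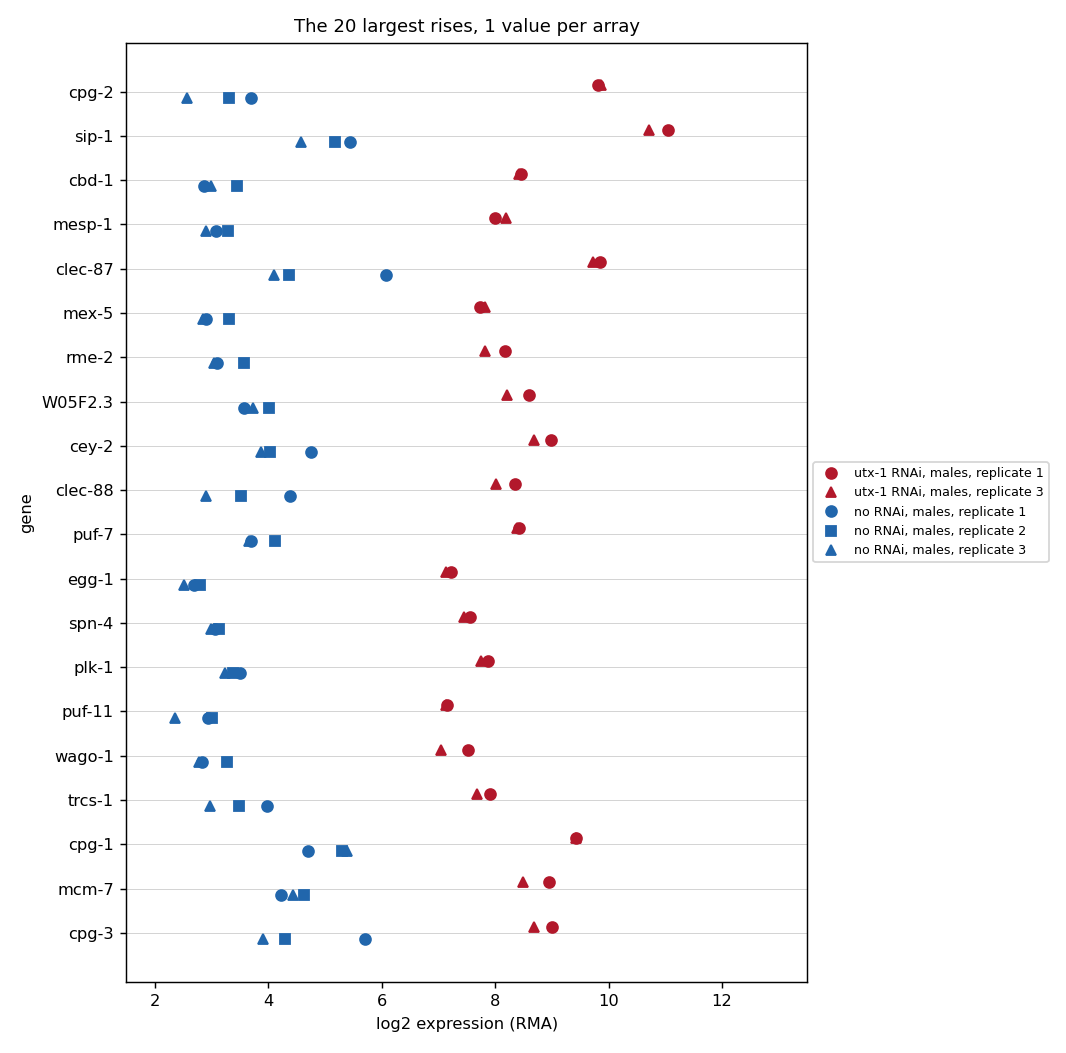
Log2 RMA expression of the 20 genes with the largest rises, 1 point per array, with utx-1 RNAi in red (2 arrays with males) and no RNAi in blue (3 arrays with males; circle, replicate 1; square, replicate 2; triangle, replicate 3). Genes were chosen by size among those whose groups do not overlap, so both red points lie to the right of all blue points by the rule; for clec-87 and cpg-3 the blue circle stands apart at 6.08 and 5.71.

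P granules are RNA and protein bodies of germ cells, and germ line Argonautes carry their small RNAs. Of 22 genes in this list, 16 were higher and none lower, against 9.39% higher among all genes, with a median of 0.60. wago-1, an Argonaute, was at 7.51 and 7.04 with utx-1 RNAi, against 2.82, 3.28 and 2.78 without (difference 4.32 ± 0.21; limma, adjusted p = 9.01e-08). deps-1, a P granule assembly gene, was at 6.06 and 5.68 with utx-1 RNAi, against 2.71, 3.07 and 2.86 without (difference 2.99). Both genes were apart by more than the spread of either group. hrde-1, the nuclear Argonaute of inherited silencing, rose by 2.08, the P granule gene pgl-3 by 1.90 and meg-1 by 1.6.

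Meiotic chromosome genes rose less than oocyte genes. Of 27, 21 were higher and none lower, against 9.39% higher among all genes, with a median of 1.02. The list averaged 4.53 and 4.47 with utx-1 RNAi, against 3.42, 3.47 and 3.40 without. him-3, a protein of the meiotic chromosome axis, was at 5.91 and 6.08 with utx-1 RNAi, against 3.73, 3.70 and 3.11 without (difference 2.48 ± 0.20; limma, adjusted p = 3.48e-06). htp-3, from the same axis, was at 5.24 and 5.27 with utx-1 RNAi, against 3.14, 3.13 and 2.93 without (difference 2.19). No array without RNAi reached the RNAi arrays in either gene. htp-1 rose by 1.91, xnd-1, which acts on crossover placement, by 1.83, and zim-2, a zinc finger protein of chromosome pairing centres, by 1.51.

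Cell division and DNA replication genes were the longest list to move as a block. Of 48, 43 were higher and none lower, against 9.39% higher among all genes, with a median of 1.99. The list averaged 6.05 and 5.88 with utx-1 RNAi, against 4.02, 4.07 and 3.95 without. plk-1, the Polo-like kinase of mitosis and meiosis, was at 7.87 and 7.76 with utx-1 RNAi, against 3.5, 3.37 and 3.23 without (difference 4.45 ± 0.25; limma, adjusted p = 2.06e-07). mcm-7, a subunit of the replicative helicase, was at 8.96 and 8.48 with utx-1 RNAi, against 4.23, 4.63 and 4.43 without (difference 4.29). cyb-3, a B-type cyclin, was at 9.69 and 9.45 with utx-1 RNAi, against 5.93, 6.26 and 5.82 without (difference 3.57). In these genes the RNAi arrays lay on their own side of a gap wider than either group's spread. The helicase subunits mcm-3 and mcm-6 rose by 2.77 and 2.48, and the phosphatase cdc-25.1 by 1.94.

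Genes of germ line stem cell signalling changed by smaller amounts. Of 7, 5 were higher and 1 lower, against 9.39% and 5.23% of all genes, with a median of 0.58. glp-1 mRNA, the gene mutated in every sample, was at 7.22 and 7.03 with utx-1 RNAi, against 5.54, 5.86 and 5.54 without (difference 1.48 ± 0.19; limma, adjusted p = 0.00022). lst-1, a GLP-1 target of the stem cell niche, was at 6.25 and 5.62 with utx-1 RNAi, against 4.45, 4.88 and 4.69 without (difference 1.26). The groups did not overlap in either gene. The Pumilio genes fbf-2 and fbf-1, which act below GLP-1, rose by 0.75 and 0.58, and lag-1, its DNA-binding effector, by 0.55. The lower member was sygl-1, another GLP-1 target, named after its values were seen. It was at 2.33 and 2.47 with utx-1 RNAi, against 2.71, 2.59 and 2.87 without, a dim probe set whose fall of 0.32 (limma, adjusted p = 0.0313) was not called without replicate 1 of utx-1 RNAi (limma, adjusted p = 0.277) and turned to 0.18 higher when arrays were centred on muscle and neuron genes.

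Several proteins have a germ line form and a somatic form encoded by separate genes, and these pairs split. For the translation factor eIF5A, the germ line gene iff-1 was at 9.24 and 9.55 with utx-1 RNAi, against 7.06, 6.65 and 4.93 without (difference 3.18 ± 0.49; limma, adjusted p = 0.000862). Its somatic counterpart iff-2 was at 11.95 and 11.94 with utx-1 RNAi, against 11.74, 11.81 and 11.91 without (difference 0.12; limma, adjusted p = 0.409). For iff-1, replicates 1 and 2 without RNAi were well above replicate 3, and all were below the RNAi arrays. The Y-box gene cey-1, the partner of cey-2, differed by -0.08 (limma, adjusted p = 0.589).

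ucr-2.3, a germ line form of a respiratory complex subunit, was at 4.98 and 4.50 with utx-1 RNAi, against 3.29, 3.3 and 3.53 without (difference 1.36). ucr-2.1 was at 9.28 and 9.37 with utx-1 RNAi, against 9.48, 9.36 and 9.43 without (difference -0.09; limma, adjusted p = 0.471). The first pair member had separate groups and the other overlapping ones. Among cap-binding eIF4E genes, ife-3 and ife-1 of the germ line rose by 1.36 and 0.34, while ife-2 fell by 0.29 (limma, adjusted p = 0.0434), a difference of 0.21 in the other direction when arrays were centred on muscle and neuron genes. Without replicate 1 of utx-1 RNAi neither ife-1 nor ife-2 passed (limma, adjusted p = 0.226 and 0.397), and leaving out most other single arrays also ended the call of ife-2. In all, 4 of 6 germ line isoform genes were higher, with pab-1 at -0.22 (limma, adjusted p = 0.344), and 0 of 6 somatic isoform genes were higher. Among all genes 9.39% were higher.

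Large housekeeping families held few called genes. Of 41 respiratory chain genes, 4 were higher, near the share of 9.39% among all genes: asb-1, an ATP synthase subunit gene, by 1.61, ucr-2.3 by 1.36, sdha-2, a succinate dehydrogenase subunit gene, by 1.26, and cox-11, an assembly factor gene, by 0.49. The family's median was 0.01. Of 75 ribosomal protein genes, 2 were higher, rpl-11.1 by 1.85 and rpl-23A.2 by 0.34, with a median of 0.03. rpl-11.1 was at 10.27 and 10.33 with utx-1 RNAi, against 8.70, 8.59 and 8.08 without. None of either family was lower, and the remaining members did not pass the test. The call of rpl-23A.2 lapsed without any of 4 arrays in turn: either array of utx-1 RNAi and replicates 1 and 2 of no RNAi (limma, adjusted p from 0.0546 to 0.122).

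Of 35 histone genes, 5 were higher and 2 lower, against 9.39% higher and 5.23% lower among all genes, with a median of -0.12. Histone types were not compared by a test. hil-5, a linker histone gene, was at 8.45 and 7.92 with utx-1 RNAi, against 4.69, 5.12 and 4.93 without (difference 3.27 ± 0.23; limma, adjusted p = 1.13e-06). The linker histone gene hil-4 rose by 2.99, the H2A.Z gene htz-1 by 1.39 and the H3.3-like gene his-74 by 1.27. These variant genes had arrays apart between the groups. Replication-type histone mRNAs of worms largely lack poly(A) tails, and many of the list's probe sets can bind several copies. Of these, his-6 fell by 0.34 (limma, adjusted p = 0.0169), against 0.16 higher when arrays were centred on muscle and neuron genes, and did not pass without replicate 3 of utx-1 RNAi (limma, adjusted p = 0.12) or replicate 3 of no RNAi (limma, adjusted p = 0.0505).

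Of 17 genes for writing or erasing methyl marks on lysines 27 and 4 of histone H3, 5 were higher (3 without replicate 1 of utx-1 RNAi), and utx-1 was the 1 that fell. The PRC2 subunit genes mes-2 and mes-3 rose by 0.61 and 0.36. mes-2 was at 4.51 and 4.77 with utx-1 RNAi, against 4.05, 3.92 and 4.11 without. The H3K4 methyltransferase set-2 rose by 0.61 and its complex partner wdr-5.1 by 0.76. Among 11 other histone lysine modifiers, 4 were higher, against 9.39% of all genes. set-32 was at 4.60 and 4.49 with utx-1 RNAi, against 3.00, 3.01 and 2.88 without (difference 1.58 ± 0.12; limma, adjusted p = 1.37e-06). mes-4, a germ line methyltransferase for lysine 36, rose by 1.27, jhdm-1 by 0.44 and met-2, which methylates lysine 9, by 0.42. The call of mes-3 lapsed without replicate 1 of utx-1 RNAi (limma, adjusted p = 0.136), and those of mes-2 and met-2 without replicate 3 (limma, adjusted p = 0.0676 and 0.104).

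The RNAi machinery makes and loads small interfering RNAs. Of its 24 genes measured, 9 were higher and none lower, against 9.39% higher among all genes, with a median of 0.22. ergo-1, an Argonaute of endogenous small RNAs, was at 5.16 and 4.70 with utx-1 RNAi, against 3.3, 3.65 and 3.29 without (difference 1.52 ± 0.15; limma, adjusted p = 1.58e-05). ppw-2 rose by 0.96, the nuclease gene rde-8 by 0.93, the exonuclease gene mut-7 by 0.81 and mut-15 by 0.70. Without males 0 of these 24 genes passed the test (limma), where 0.169% of all genes did.

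The insulin receptor pathway controls lifespan and stem cell division in worms. age-1, its PI3 kinase gene, was at 5.32 and 5.07 with utx-1 RNAi, against 4.54, 4.75 and 4.72 without (difference 0.53 ± 0.10; limma, adjusted p = 0.00504). pdk-1, a kinase that acts below it, rose by 0.41 (limma, adjusted p = 0.00742). The groups did not overlap for age-1. The calls of age-1 and pdk-1 lapsed without replicate 1 of utx-1 RNAi (limma, adjusted p = 0.0957 and 0.067). daf-16, the FOXO transcription factor, was at 7.85 and 7.67 with utx-1 RNAi, against 7.84, 7.98 and 8.14 without, which overlap (difference -0.23; limma, adjusted p = 0.135). Of 21 DAF-16 responsive and oxidative stress genes, dod-18 and sod-2 rose, by 0.90 and 0.45, and 19 did not pass. That is near the share of 9.39% higher among all genes. dod-18 lost its call without replicate 1 of utx-1 RNAi, at a difference of 0.69. Among those 19, sod-3 was at 6.80 and 7.0 with utx-1 RNAi, against 7.21, 7.25 and 7.16 without (difference -0.31; limma, adjusted p = 0.0768).

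Single members also stood out in lists that otherwise did not rise. sip-1, a small heat shock protein of oocytes and embryos, was at 11.05 and 10.71 with utx-1 RNAi, against 5.45, 5.17 and 4.58 without. Its difference of 5.81 ± 0.37, or 56.1-fold, was the next largest after cpg-2 (SE; limma, adjusted p = 4.76e-07). Of the 12 small heat shock genes it was the only one higher. Of 73 cytochrome P450 genes, 4 were higher and 7 lower, against 9.39% and 5.23% of all genes, with a median of -0.19. The 7 became 1 without replicate 1 of utx-1 RNAi and 4 without replicate 1 of no RNAi. Among the rises, cyp-31A5, cyp-31A2 and cyp-31A3 rose by 1.54, 1.07 and 0.75. CYP-31A2 and CYP-31A3 are needed for the lipid layer of the eggshell, and these near-identical genes may share probe signal. Of 80 Hedgehog-related and Patched-related genes, ptr-2 was the only one higher. It was at 5.90 and 6.14 with utx-1 RNAi, against 3.40, 3.39 and 3.36 without (difference 2.63).

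Of 220 C-type lectin genes, 3 were higher and 28 lower, against 9.39% and 5.23% of all genes. The 3 were among the large rises. clec-87 was at 9.84 and 9.72 with utx-1 RNAi, against 6.08, 4.36 and 4.10 without (difference 4.93 ± 0.54; limma, adjusted p = 4.81e-05). clec-88 was at 8.35 and 8.02 with utx-1 RNAi, against 4.39, 3.52 and 2.89 without (difference 4.58). clec-91 was at 8.08 and 7.53 with utx-1 RNAi, against 5.59, 3.67 and 3.73 without (difference 3.47). In all 3, replicate 1 was the highest of the arrays without RNAi, and it stayed below the RNAi arrays. dhs-11, a short-chain dehydrogenase gene, rose by 1.19, and nhr-23, a nuclear hormone receptor gene, by 1.11.

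Among the rises outside every list, mesp-1, a meiotic spindle protein gene, was the largest. It was at 8.00 and 8.19 with utx-1 RNAi, against 3.08, 3.28 and 2.90 without (difference 5.01 ± 0.19; limma, adjusted p = 7.95e-08). sun-1, whose nuclear envelope protein pairs meiotic chromosomes, was at 6.64 and 6.38 with utx-1 RNAi, against 2.70, 2.88 and 2.61 without (difference 3.78). Both were below the array median in all 3 arrays without RNAi. The importin gene ima-2 rose by 4.01, the glycogenin gene gyg-2 by 3.97, nasp-2, whose product resembles a histone chaperone, by 3.81 and gfat-2, an enzyme gene of amino sugar synthesis, by 3.77. plk-3, of the Polo-like kinase family, rose by 4.20. W05F2.3, T19H12.2 and F18A1.7 rose by 4.64, 4.10 and 3.93.

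**Figure D3:**
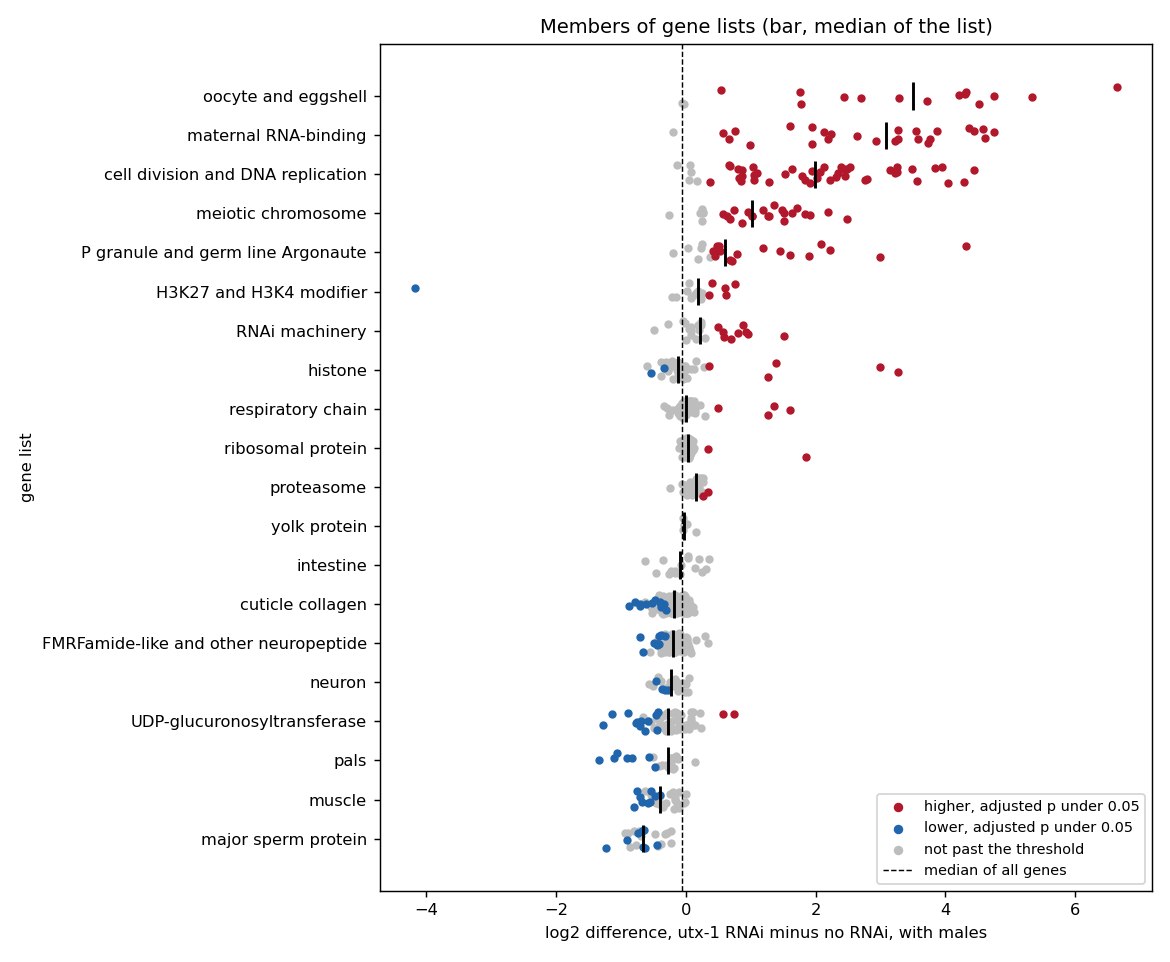
Log2 difference of each measured member of 20 gene lists, utx-1 RNAi minus no RNAi with males, with members higher at an adjusted p under 0.05 in red, lower in blue and the others in grey; bars are list medians and the dashed line is the median of all genes. Medians run from 3.5 for oocyte and eggshell genes down to -0.67 for major sperm proteins, and centring arrays on muscle and neuron genes would shift every point to the right, by about the distance between the all-probe-set medians of 0.44 and -0.06.

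Other cell types of the gonad and the products of mating did not follow the oocyte genes. Of 24 genes first transcribed in the embryo, 1 was higher and 1 lower: lsy-27 by 0.84 (limma, adjusted p = 0.00924) and nob-1 by -0.33 (limma, adjusted p = 0.0209), which became 0.17 when arrays were centred on muscle and neuron genes. The list averaged 3.34 and 3.13 with utx-1 RNAi, against 3.15, 3.18 and 3.25 without, so its arrays interleaved. Neither lsy-27 nor nob-1 passed without replicate 1 of utx-1 RNAi (limma, adjusted p = 0.15 and 0.266). Of 7 somatic gonad genes, 0 passed the test in either direction, with a median of -0.10. Of 5 yolk protein genes, 0 passed. vit-2 was at 12.00 and 12.06 with utx-1 RNAi, against 12.11, 12.06 and 12.09 without (limma, adjusted p = 0.698), and vit-6 was at 13.28 and 13.42 with utx-1 RNAi, against 13.15, 13.22 and 13.20 without (limma, adjusted p = 0.328). Of 16 intestine genes, 0 passed, with a median of -0.09. In whole worms, more germ cells and more germ line RNA per cell cannot be told apart, and why the 2 arrays differed in germ line RNA was not tested.

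Sperm genes were not higher as a group. Of 23 major sperm protein genes, which form the cytoskeleton of sperm, 0 were higher and 8 lower, against 5.23% lower among all genes. Their median was -0.67, or -0.17 with 1 lower when arrays were centred on muscle and neuron genes. The 8 became 2 and 3 without replicates 1 and 3 of utx-1 RNAi, 3 and 13 without replicates 2 and 3 of no RNAi, and 19 with arrays centred on their median. The median stayed between -0.79 and -0.49 with any of these 4 arrays left out. The list averaged 3.89 and 3.89 with utx-1 RNAi, against 4.36, 4.90 and 4.32 without. msp-59 was at 4.60 and 4.69 with utx-1 RNAi, against 5.69, 6.31 and 5.65 without (difference -1.24; limma, adjusted p = 0.00123), by a probe set that can bind its close relatives. Replicate 2 without RNAi was the highest for both. Of 52 other sperm genes, 2 were higher and 7 lower, against 9.39% and 5.23% of all genes. Their median was -0.14, and -0.10 without replicate 1 of utx-1 RNAi. With only the 5 arrays with males, 1 of the 52 was higher and 2 lower. With arrays centred on their median, 0 were higher and 15 lower. try-5, a protease gene of male seminal fluid, was at 5.30 and 5.14 with utx-1 RNAi, against 6.66, 6.42 and 6.37 without (difference -1.27; limma, adjusted p = 0.00134). It fell by 1.21 without males as well, where no male was plated.

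The largest falls behaved unlike the largest rises. In 18 of the 20 genes with the largest falls, replicates 1 and 2 without RNAi were at least 1 log2 unit above every other array in the series, replicate 3 of their own group included. Exceptions were utx-1 and clec-174. Among all 66 probe sets that fell by more than 1, this held for 27, and for 10 the mean of both RNAi arrays lay within 0.5 of replicate 3 without RNAi. F09C6.10 was at 2.53 and 3.11 with utx-1 RNAi, against 6.77, 6.72 and 3.74 without (difference -2.93; limma, adjusted p = 0.0138). For those 18 genes the fall is largest against replicates 1 and 2. Replicate 3 of no RNAi also lay above both utx-1 RNAi arrays in them, but by less, as for F09C6.10 at 3.74 beside 2.53 and 3.11. Without replicate 1 of utx-1 RNAi, which held the lower value in most of these genes, F09C6.10 still differed by -2.63 but no longer passed (limma, adjusted p = 0.125).

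fipr-17, of a family of antimicrobial peptide genes of the epidermis, was at 2.59 and 2.95 with utx-1 RNAi, against 6.51, 6.01 and 3.74 without (difference -2.65). ins-31, an insulin-like peptide gene, was at 2.04 and 2.87 with utx-1 RNAi, against 6.58, 5.28 and 3.32 without (difference -2.61). clec-197, a lectin gene, was at 2.87 and 3.35 with utx-1 RNAi, against 6.61, 6.53 and 4.05 without (difference -2.62). Replicate 3 without RNAi lay closer to the RNAi arrays than to its own group in all 3 genes. The same held for the levels of K12H6.9, C48B4.12, K03D3.5, T26A8.3 and ZK1290.11, with differences of -2.85, -2.65, -2.63, -2.53 and -2.34. clec-94, a further lectin gene, fell by 2.31, C35B1.3 by 2.28, clec-219 by 2.27, C14F11.7 by 2.25, K12H6.4 by 2.13, nas-17, of the astacin metalloprotease family, by 2.07, clec-137 by 2.02, F18E9.7 by 1.95 and C09G12.5 by 1.95. Of these 18 genes, clec-94 and T26A8.3 were the ones whose effect differed between worms with and without males (limma interaction, adjusted p = 0.0369 and 0.0398). Of the 50 calls of a fall named here, 13 lapsed without replicate 2 of no RNAi with males. They included nas-17, clec-137, C09G12.5, K12H6.4 and K03D3.5 (limma, adjusted p from 0.0571 to 0.0755). The call of nas-17 also lapsed without some single arrays kept without males, such as replicate 2 of no RNAi (limma, adjusted p = 0.0571). Over all genes named here, 37 of 50 calls of a fall lapsed without replicate 1 of utx-1 RNAi, against 8 of 90 calls of a rise. The 37 lapsed falls kept a median of 86.5% of their difference (55.8% to 106%), with 1 array left in their group. Of the 18, clec-94 kept its call without that array.

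**Figure D4:**
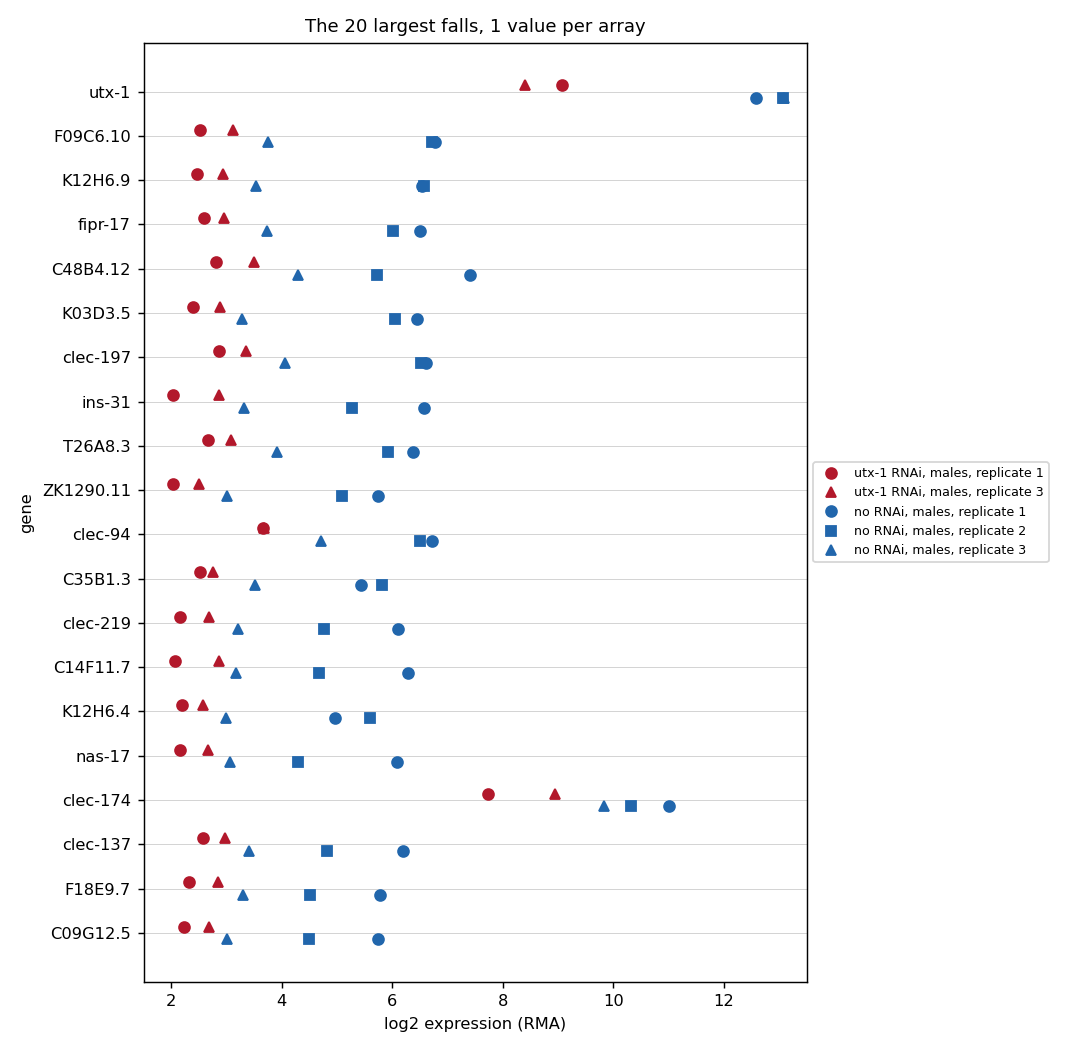
Log2 RMA expression of the 20 genes with the largest falls, 1 point per array, with utx-1 RNAi in red (2 arrays with males) and no RNAi in blue (3 arrays with males; circle, replicate 1; square, replicate 2; triangle, replicate 3). The genes were chosen among those whose groups do not overlap. Apart from utx-1 and clec-174, the blue triangle has a higher value than both red points. The blue circle and square stand at least 1 log2 unit above the triangle.

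clec-174 differed from that pattern. It was at 7.73 and 8.94 with utx-1 RNAi, against 11, 10.31 and 9.83 without (difference -2.05 ± 0.41; limma, adjusted p = 0.00519). All 3 arrays without RNAi were above both RNAi arrays, and without replicate 1 of utx-1 RNAi the adjusted p was 0.0911 (limma). Without males the gene differed by -1.66 with an adjusted p of 0.076 (limma). spp-12, a saposin-like gene, was at 7.30 and 7.74 with utx-1 RNAi, against 9.40, 9.43 and 8.64 without (difference -1.63), and it passed the test without males too, at -2.02. With males its call lapsed without replicate 1 of utx-1 RNAi (limma, adjusted p = 0.0699).

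Of 31 muscle genes, 0 were higher and 9 lower as deposited, against 5.23% lower among all genes, with a median of -0.40. The count of falls was 15 with arrays centred on their median (median -0.47) and 13 with quantile normalisation (median -0.45). Centring on muscle and neuron genes gave 0.10, near 0 by construction. The list averaged 7.20 and 7.47 with utx-1 RNAi, against 7.86, 7.61 and 7.68 without. unc-54, the major body wall myosin heavy chain, was at 5.38 and 5.59 with utx-1 RNAi, against 6.25, 6.15 and 6.47 without (difference -0.80 ± 0.13; limma, adjusted p = 0.000998). lev-11, muscle tropomyosin, was at 7.80 and 8.04 with utx-1 RNAi, against 8.62, 8.44 and 8.80 without (difference -0.70). Replicate 1 of utx-1 RNAi was the lower of its pair in both, and without it 1 muscle gene of 31 was called lower, at a list median of -0.24; without replicate 1 of no RNAi 4 were. dim-1, tni-3 and unc-89 fell by 0.76, 0.67 and 0.53.

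Of 24 neuron genes, 0 were higher and 4 lower as deposited, against 5.23% lower among all genes, with a median of -0.24. The count of falls was 12 with arrays centred on their median, 8 with quantile normalisation, 0 without replicate 1 of utx-1 RNAi, and 1 and 2 without replicates 1 and 3 of no RNAi. cat-2, the tyrosine hydroxylase of dopamine neurons, fell by 0.46 and rab-3, a synaptic vesicle GTPase gene, by 0.28, both less than the 0.5 that centring on muscle and neuron genes adds. Neither passed without replicate 1 of utx-1 RNAi (limma, adjusted p = 0.183 and 0.255). unc-25, the GABA-synthesising enzyme, was at 4.15 and 4.61 with utx-1 RNAi, against 4.97, 4.79 and 4.90 without (difference -0.50; limma, adjusted p = 0.0589). The GABA transporter gene snf-11 differed by -0.20 (limma, adjusted p = 0.253). Of 83 neuropeptide genes, 0 were higher and 10 lower, against 5.23% lower among all genes, and their median was -0.20. The falls were led by nlp-61 at -0.66 (limma, adjusted p = 0.00209). The 10 became 2 without replicate 1 of utx-1 RNAi and 6 without replicate 1 or 3 of no RNAi. The muscle and neuron centring, by its shift of all genes, turned that median to 0.30. nlp-7 differed by -0.08 (limma, adjusted p = 0.628).

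Of 145 cuticle collagen genes, 0 were higher and 13 lower, against 5.23% of all genes lower, with a median of -0.19 that turned to 0.31 when arrays were centred on muscle and neuron genes. col-158 was at 4.55 and 5.17 with utx-1 RNAi, against 5.71, 5.47 and 5.52 without (difference -0.70; limma, adjusted p = 0.0164). col-104 fell by 0.47 and turned to 0.03 higher with that centring. Without replicate 1 of utx-1 RNAi 0 collagen genes were lower, without replicates 1 and 3 of no RNAi 6 and 7 were, and 49 were with arrays centred on their median. The C-type lectins had 28 of 220 lower, with a median of -0.14 that turned to 0.36 under the muscle and neuron centring. Their count of falls was 5 without replicate 1 of utx-1 RNAi, 18 without replicate 1 of no RNAi, 10 with only the 5 arrays with males and 55 with arrays centred on their median.

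Of 64 UDP-glucuronosyltransferase genes, which attach sugars to lipophilic compounds, 12 were lower and 2 higher, against 5.23% and 9.39% of all genes. Their median was -0.28, which turned to 0.23 when arrays were centred on muscle and neuron genes. ugt-44 was at 6.1 and 6.36 with utx-1 RNAi, against 7.32, 7.62 and 7.60 without (difference -1.28 ± 0.13; limma, adjusted p = 3.02e-05). ugt-66 was at 4.34 and 4.99 with utx-1 RNAi, against 5.79, 5.88 and 5.75 without (difference -1.14; limma, adjusted p = 0.00323). In the family, 4 were lower without replicate 1 of utx-1 RNAi, at a median of -0.13. The groups were separate in both genes, and the call of ugt-66 lapsed without replicate 1 of utx-1 RNAi (limma, adjusted p = 0.0596). ugt-9 and ugt-16 fell by 0.89 and 0.71, and ugt-35 rose by 0.74. Of 45 glutathione S-transferase genes, 7 were lower and 0 higher, with a median of -0.18 that turned to 0.32 under that centring, and 1 was lower without replicate 1 of utx-1 RNAi. gst-4, an oxidative stress response gene, was at 7.35 and 7.68 with utx-1 RNAi, against 8.34, 8.18 and 8.2 without (difference -0.73; limma, adjusted p = 0.000391).

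The pals genes form a large family linked to the response to intracellular infection. Of 23, 7 were lower and 0 higher, against 5.23% lower among all genes. Their median was -0.27, or 0.23 with 3 lower and 1 higher when arrays were centred on muscle and neuron genes. The list averaged 4.22 and 4.39 with utx-1 RNAi, against 4.71, 4.80 and 4.71 without. pals-29 was at 4.66 and 4.49 with utx-1 RNAi, against 5.59, 5.99 and 6.17 without (difference -1.34 ± 0.21; limma, adjusted p = 0.000961). pals-6 was at 5.69 and 6.38 with utx-1 RNAi, against 6.94, 7.38 and 6.99 without (difference -1.07). The groups were apart in both. pals-32 fell by 0.83. Without replicate 1 of utx-1 RNAi 1 of the 23 was lower, at a list median of -0.25, and pals-6 and pals-32 missed the threshold (limma, adjusted p = 0.0601 for each). For all 3 the effect with males was lower than the effect without males (limma interaction, adjusted p = 0.0107, 0.021 and 0.00806).

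Of 24 insulin-like peptide genes, 0 were higher and 3 lower, against 9.39% and 5.23% of all genes. Beside ins-31, the lower ones were ins-35 by 0.72 and ins-22 by 0.56. ins-11 was at 6.41 and 5.82 with utx-1 RNAi, against 6.05, 6.52 and 6.62 without (limma, adjusted p = 0.468), and ins-7 was at 9.29 and 9.02 with utx-1 RNAi, against 9.26, 9.72 and 9.28 without (limma, adjusted p = 0.468). Their arrays overlapped. Of 11 regulators of long life in worms without a germ line, skn-1, a transcription factor of the stress response, fell by 0.57 (limma, adjusted p = 0.0165) and 10 did not pass. Of 15 propionate and vitamin B12 genes, mtrr-1 rose by 0.63 and hphd-1 fell by 0.50. Without replicate 1 of utx-1 RNAi none of ins-35, ins-22, skn-1, mtrr-1 and hphd-1 passed (limma, adjusted p from 0.068 to 0.242). No member passed in the lists of 15 fatty acid desaturases and elongases, 26 cathepsins and aspartyl proteases, 11 methionine cycle genes and 5 ascaroside synthesis genes.

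The effect of utx-1 RNAi was then set against its effect in worms kept without males, which shares no array with the contrast above. Without males 37 probe sets changed (0.164%), 8 higher (0.0355%) and 29 lower (0.129%). Of the 639 probe sets that rose by more than 1 with males, 0 were called higher without males, by limma at the same threshold. Their median log2 difference was 1.67 with males and -0.04 without. The interaction passed for 1725 of all probe sets (7.65%), 1448 toward a higher effect with males (6.42%) and 277 the other way (1.23%). It passed for 627 of the 639 (98.1%). These were chosen by the contrast with males, which is part of the interaction, so their high share follows largely from that choice. Of the 66 that fell by more than 1 with males, 6 also fell without males, and 12 passed the interaction.

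**Figure D5:**
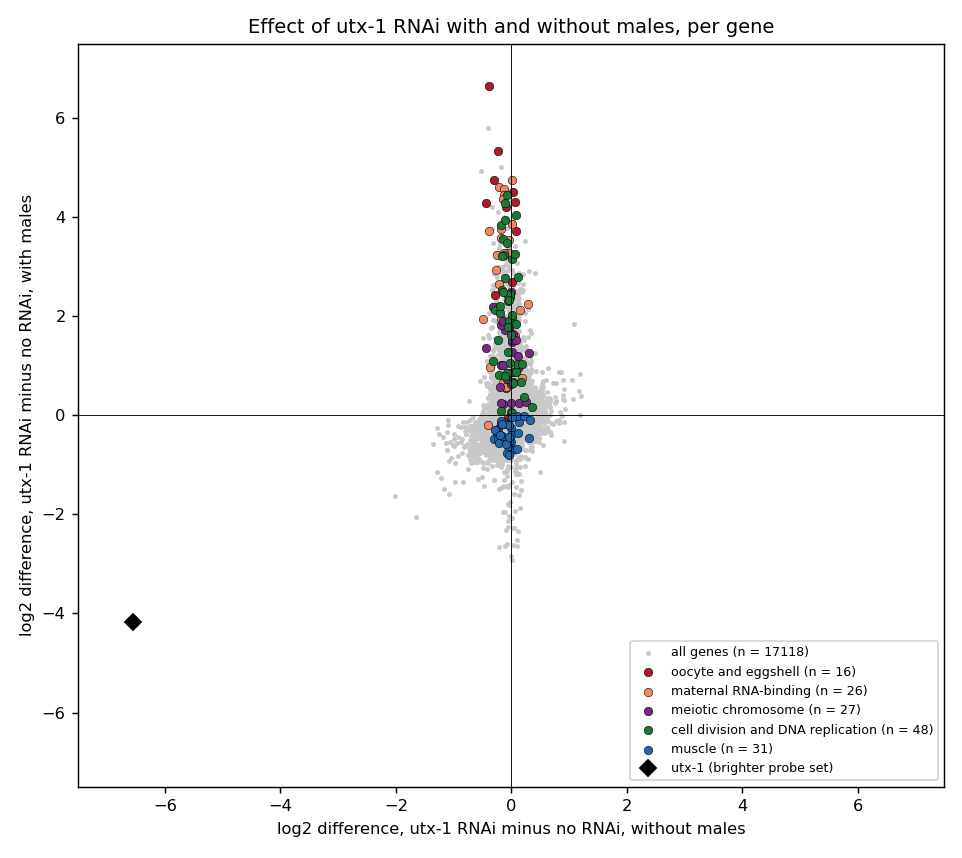
Log2 difference of utx-1 RNAi minus no RNAi for each of 17118 genes, with males on the vertical axis and without males on the horizontal axis; grey, all genes; colours, 5 gene lists; diamond, utx-1. The oocyte, maternal, meiotic and cell division genes form a vertical band, up to 6.65 with males and near 0 without, and utx-1 stands alone at -4.18 with males and -6.55 without.

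By list, the interaction passed for 14 of 16 oocyte and eggshell genes, 25 of 26 maternal RNA-binding genes, 41 of 48 cell division genes, 20 of 27 meiotic genes and 13 of 22 P granule and Argonaute genes, all toward a higher effect with males, against 6.87% of all genes. Without males the 5 lists held no called gene by limma, against 0.169% of all genes, and their medians lay between -0.14 and 0.04. cpg-2 differed by -0.39 without males (limma, adjusted p = 0.628) and by 7.05 between the settings (limma interaction, adjusted p = 7.26e-06). For glp-1 mRNA the effects differed by 1.4 (limma interaction, adjusted p = 0.00463). In the other direction, the interaction passed for 6 of 23 pals genes, 4 of 64 UDP-glucuronosyltransferase genes and 2 of 31 muscle genes, against 1.21% of all genes. The muscle genes included unc-54, at -0.80 with males and -0.03 without.

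Of the 37 probe sets changed without males, 20 (54.1%) were called in the same direction with males. They included both utx-1 probe sets, spp-12, try-5 and ugt-66. For these last 3 the effects with and without males were of similar size, and the interaction did not pass (limma interaction, adjusted p = 0.688, 0.947 and 0.836).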

How the data were processed

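RNA from whole worms was hybridised to Affymetrix C. elegans arrays. The values are log2 RMA expression as the authors deposited it; RMA is named in the submitters' processing notes, with its software and version not given in the sources used here. From the 22625 probe sets, 77 array controls were left out. Genes were named from the platform annotation, updated through RefSeq gene names: 20766 of 22548 probe sets had 1 gene symbol, 887 several and 895 were not listed. Arrays were grouped by title. The number in the title differed from that in the description for 2 arrays, and the title was followed.

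limma (version 3.58.1, under R 4.3.3) fitted 1 mean per group to the 11 arrays by lmFit, contrasts.fit and eBayes, leaving 7 residual degrees of freedom, with Benjamini-Hochberg adjustment over 22548 probe sets and a threshold of 0.05. Standard errors are the moderated ones. Precision is limited by how few arrays there are. The fit was tested on simulated data. Each gene was read from its brightest probe set. Named genes are the 20 largest rises and 20 largest falls without overlap between arrays, up to 5 members of each of 49 lists by smallest p, the 10 largest rises and falls in no list, and some fixed genes. Members and lists were chosen with earlier results of these data known. Alternatives changed the arrays in the fit, the prior, the scaling, a filter on dim probe sets, a replicate block and the arrays left out. No sequences were used. The result for 1 gene is not reported here.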

Additional observations from a re-analysis of the deposited data

Results flagged for a closer look

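The effect of utx-1 RNAi differed between worms with and without males, by limma's interaction test, for 1725 probe sets, of which 1448 had the higher effect with males and 277 the lower. Each value here is the effect with males minus the effect without males on the log2 scale. Among oocyte and eggshell genes it was 7.05 for cpg-2, 5.57 for cbd-1, 5.05 for rme-2, 4.74 for cpg-1, 4.50 for egg-1, 4.31 for cpg-3 and 4.25 for trcs-1. Among maternal RNA-binding genes it was 4.82 for cey-2, 4.74 for mex-5, 4.70 for puf-7, 4.57 for spn-4 and 4.52 for puf-11. It was 4.53 for plk-1, 4.41 for mcm-7 and 4.33 for wago-1. The heat shock gene sip-1 had 6.21, mesp-1 5.18, W05F2.3 4.84, and the lectin genes clec-87 and clec-88 5.45 and 4.69. The isoform genes iff-1 and ucr-2.3 had 3.34 and 1.57, and glp-1 mRNA 1.4.

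For utx-1 the value was 2.37 on the brighter probe set, the fall being smaller with males. T26A8.3 and clec-94 had -2.62 and -2.22, and both had replicates 1 and 2 of no RNAi with males above the other arrays. sod-3 had -0.55, with -0.31 with males and 0.24 without, neither past the threshold by limma.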

How the results depend on the processing

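The 3165 changed probe sets with males became 5012 when arrays were centred on their median and 9150 when centred on muscle and neuron genes, where 9066 were higher and 84 lower. The median over all probe sets was -0.13 and 0.44 under these scalings, against -0.06 as deposited. The 1144 falls became 3190 median-centred, 1966 quantile normalised, 593 with only the 5 arrays with males, 592 with a replicate block and 753 without replicates 1 and 2 of no RNAi, the setting added after seeing the data. Beside the 3190 and 1966 falls, 1822 and 1944 probe sets were higher. Leaving out each array in turn gave 1476 to 3218 changed, 1333 to 2052 higher and 143 to 1166 lower. The 37 changed without males became 96 with a trended and robust prior, 64 median-centred, 93 quantile normalised, 122 muscle and neuron centred, 58 among only the probe sets above the median level and 6 with the replicate block, and ranged over 5 to 59 with an array left out. The 1725 interactions became 4336 muscle and neuron centred and 1100 among those brighter probe sets, and ranged over 1137 to 1706. Muscle and neuron centring adds 0.5 to every difference, so by construction it turned smaller falls, cat-2 to 0.04, col-104 to 0.029, his-6 to 0.16, ife-2 to 0.21, nob-1 to 0.17, rab-3 to 0.22 and sygl-1 to 0.18. The cause of the other moves was not tested; a fit without 1 of the utx-1 RNAi arrays with males has 1 array in that group, assumed to vary like the other groups. Same-numbered arrays with males had deviations from their group means correlated at -0.335 and -0.285. The deviations of 2 utx-1 RNAi arrays mirror each other by construction, so replicates 3 and 1, and 1 and 3, stood at 0.335 and 0.285. These values cannot tell whether the numbers pair the samples, and the block is given here only as an alternative.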
